A study of Mus musculus with 9 samples.

Results

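The 76 cytosolic ribosomal protein genes, 46 of the large and 30 of the small ribosomal subunit, were followed across macrophages sorted from 3 organs of untreated mice. They were taken by symbol from the 15434 genes of the deposited table: every gene named Rpl or Rps with a digit, and Rplp0, Rplp1, Rplp2 and Rpsa. The search matched 94 symbols, of which 8 Rps6k kinase genes, 3 pseudogenes and 7 paralogs whose symbols end in l or l1 were left out. The label held for 73 of the 76. The other 3 were Rps19bp1, which encodes a protein that binds Rps19, and Rpl37rt and Rps27rt, which are retrotransposed copies of Rpl37 and Rps27. The groups were 3 libraries each from testis, epididymis and brain, all from C57BL/6J animals without culture or treatment and with no transgene or deletion named. In each organ the cells were sorted alive as CD45+ Ly6c- CD11c- CD11b+ F4/80+, and the brain libraries are called microglia here. The labels carry 1 mouse number for all testis libraries, another for all epididymis libraries and yet another for all brain libraries. Mouse and organ therefore cannot be told apart, and since nothing states that the libraries of an organ came from separate animals, every p-value measures only the spread between these libraries. Ages are not in the labels, and the wording of the protocol leaves unclear whether cells of several animals were pooled.

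A cytosolic ribosome is built of a large subunit, which joins amino acids, and a small subunit, which reads the mRNA, and each carries its own set of proteins around ribosomal RNA. One copy of nearly every ribosomal protein enters each ribosome, and surplus protein is degraded, so their genes are usually expressed together. Their mRNAs start with a run of C and U letters known as the TOP motif, through which mTOR and Larp1 control their translation and stability. Ribosomal protein mRNAs are among the most abundant of macrophages.

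Each library held between 2727092 and 4458688 reads assigned to genes. Macrophage markers (7 of 7 in the table, none at 0 in any organ) summed to 29.1 to 36.8 reads per 10000 in testis, 59.6 to 70.5 in epididymis and 100.5 to 104.1 in microglia. Csf1r was the most abundant of them, and the 7 genes did not all move the same way. Between testis and epididymis 0 were higher and 3 lower, and between testis and microglia 1 was higher (Ptprc, by 0.79, limma adjusted p = 0.0209) and 3 lower. Between epididymis and microglia 2 were higher (Ptprc by 0.86 and Adgre1 by 2.63, limma adjusted p = 0.0248 and 0.00502) and 2 lower. Of 8 microglia markers, 7 were in the table, and they summed to 80.1 to 83.4 per 10000 reads in microglia, 11.6 to 15.8 in epididymis and 2.53 to 4.09 in testis. The testis libraries also held markers of other testis and blood cells. Leydig cell markers (5 of 5) summed to 3.40 to 8.83 per 10000 in testis, against 0.091 to 0.643 in epididymis, where 3 of them (Insl3, Cyp17a1 and Hsd3b1) were at 0, and 0.249 to 0.336 in microglia, where Cyp17a1 and Hsd3b1 were at 0. T and NK cell markers (6 of 9 in the table) summed to 1.37 to 2.33, 0.207 to 0.457 and 0.193 to 0.506 in the same order, with Lck at 0 in epididymis and Cd3e, Lck and Nkg7 at 0 in microglia. Monocyte and neutrophil markers (5 of 5) summed to 3.46 to 4.71 in testis, where S100a8, S100a9 and Retnlg were at 0, 0.0603 to 0.266 in epididymis, where Retnlg was at 0, and 0.813 to 1.45 in microglia. Most of that sum in testis came from Ccr2, with a mean of 1343 normalised reads against 81.6 for Ly6c2. Ccr2 was higher in testis than in epididymis by 5.11 (SE 0.52, limma adjusted p = 5.3e-05), and Ly6c2 did not pass (adjusted p = 0.153). Against microglia, Ccr2 was higher in testis by 3.88 (limma adjusted p = 0.000123). S100a8 and S100a9 were lower there (log2 differences -6.40 and -6.20, limma adjusted p = 0.00824 and 0.00999). Germ cell markers (5 of 7) summed to 1.41 to 4.65 in testis, 1.28 to 2.25 in epididymis and 0 to 0.056 in microglia, where Prm1 and Tnp2 were at 0. Epididymal epithelium markers (5 of 6) summed to 0.571 to 1.12 in epididymis and 0 to 0.028 in microglia, where 4 were at 0, and all 5 were at 0 in testis. B cell, Sertoli cell, endothelial and erythroid markers reached at most 0.595 per 10000 in any library. Neuron and glia markers (4 of 6) summed to 0.501 to 1.49 in testis, 0.340 to 0.638 in epididymis and 1.09 to 1.43 in microglia, with Aqp4 at 0 in testis and epididymis. Cell division genes (9 of 10) summed to 2.48 to 4.11, 2.86 to 3.53 and 1.02 to 1.65, with Aurkb at 0 in epididymis and microglia. The part of these cells and of cell division in the differences below was not tested, and in bulk libraries fewer cells of a type and less RNA per cell cannot be told apart.

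Genes of the large subunit took 6.20%, 6.87% and 6.48% of all reads of genes in the testis libraries, 3.43%, 2.97% and 2.85% in epididymis and 1.54%, 1.35% and 1.81% in microglia. Genes of the small subunit took 3.74%, 4.26% and 4.28% in testis, 2.40%, 2.00% and 1.95% in epididymis and 0.977%, 0.794% and 1.15% in microglia. Both subunits thus stood in the order testis, epididymis, microglia, and the libraries of neighbouring organs did not overlap. All members together took 10.6% ± 0.612 (SD, n = 3) of the reads in testis, 5.20% ± 0.550 in epididymis and 2.54% ± 0.409 in microglia. Mitochondrial ribosomal protein genes (72 in the table), which serve the separate ribosomes of mitochondria, took 0.306% ± 0.0287, 0.278% ± 0.0424 and 0.293% ± 0.0173 of the reads in the same order, and there the organs overlapped.

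**Figure D1:**
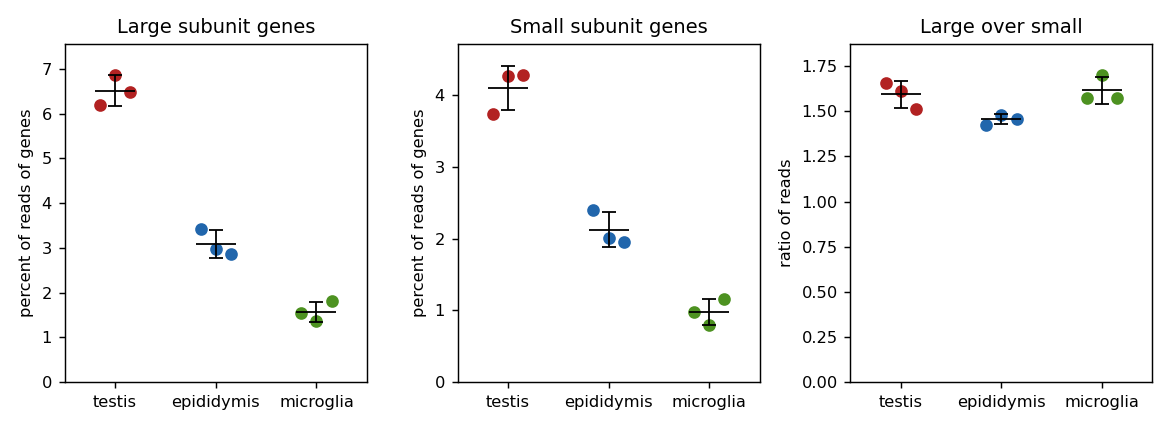
Reads of the 46 large subunit genes and of the 30 small subunit genes as a percent of all reads of genes, and the ratio of the first to the second, in each of the 9 libraries (points, 3 per organ; bars are the mean ± SD). The shares fall from testis through epididymis to microglia without overlap, while the ratio stays between 1.43 and 1.70.

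The 46 large subunit genes together drew more reads than the 30 small subunit genes in every library. These sums depend on the number of genes as well as on their level. By median log2(value + 1), large minus small subunit genes gave -0.19 in testis replicate 3 and -0.13 in epididymis replicate 1. The other libraries gave 0.04 to 0.42. The ratio of the 2 sums moved far less than the shares. The ratio was 1.66, 1.61 and 1.51 in the testis libraries, 1.43, 1.48 and 1.46 in epididymis and 1.58, 1.70 and 1.57 in microglia. The 3 epididymis libraries lay below the 6 others, and testis and microglia overlapped. The order depended on 1 gene, Rps29, a zinc-binding protein of the small subunit head that was singled out after its values were seen. Rps29 alone gave 18.1% to 25.4% of the small subunit reads in epididymis, against 10.4% to 15.5% in testis and 16.7% to 17.5% in microglia. Without Rps29 the ratio was 1.69 to 1.96 in testis, 1.74 to 1.96 in epididymis and 1.89 to 2.07 in microglia, and all 3 organs overlapped.

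Between testis and epididymis macrophages, 47 of the 76 genes were higher in testis, none was lower and 29 did not pass. These were 30 of the 46 large subunit genes and 17 of the 30 small subunit genes. The median difference was 1.22 on the log2 scale, a 2.32-fold difference, and the middle 50% of the members lay between 1.06 and 1.44. The large subunit median was 1.23 and the small subunit median 1.21. A gene passed when limma's moderated test on log2(value + 1), adjusted by Benjamini-Hochberg over all 11766 genes tested, gave an adjusted p below 0.05. A gene entered the test if 3 or more libraries had 10 or more normalised reads of it, which all 76 members did. Of all genes tested, 2.49% were called higher and 1.9% lower in testis, and their median difference was 0.10. All 3 testis libraries lay above all 3 epididymis libraries for 58 members, against 11% of all genes tested. Over all genes tested, 293 were called higher and 223 lower in testis, and 225 and 307 when the libraries were scaled to the same total, under which the median of all genes was -0.05 and 40 members were called higher. An unadjusted p below 0.05 was reached by 65 members higher and 0 lower in testis, where 9.65% of all genes were higher and 7.86% lower at that level. DESeq2 and edgeR on the recovered reads called 52 and 43 members higher (3.8% and 1.66% of all genes), and 0 lower. In limma the calls rest on letting the variance follow the mean level: without that trend, none of the members passed (lowest adjusted p = 0.0618, with 51 higher at an unadjusted p below 0.05, against 8.41% of all genes), and 1.1% of all genes were called higher.

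Between testis macrophages and microglia the difference was wider. Here 66 of the 76 genes were higher in testis, 0 lower, and 10 did not pass (limma, adjusted p below 0.05), namely 40 large and 26 small subunit genes. The median difference was 2.25, a 4.74-fold difference, with the middle 50% between 1.99 and 2.54, and the subunit medians were 2.196 for large and 2.38 for small. Of all genes tested, 6.82% were called higher and 4.83% lower in testis, with a median of -0.07. These were 803 higher and 568 lower genes, or 652 and 773 at the same total per library, where the median of all genes was -0.29, that of the members 2.02 and 66 members were still called higher. For 71 members the testis libraries did not overlap with the microglia libraries, against 15.9% of all genes. At an unadjusted p below 0.05, 70 members were higher and 0 lower (12.7% of all genes were higher and 10.7% lower), and both edgeR and DESeq2 called 67 higher (5.24% and 8.12% of all genes) and 0 lower. Without the variance trend 54 members passed, against 4.5% of all genes.

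Epididymis macrophages stood between testis and microglia. Against microglia, 35 of the 76 genes were higher in epididymis, 0 lower and 41 did not pass (limma, adjusted p below 0.05), from 22 large and 13 small subunit genes. The median difference was 0.94, a 1.91-fold difference, with the middle 50% between 0.64 and 1.31, and the subunit medians were 0.92 for large and 1.04 for small. Of all genes tested, 2.99% were called higher and 1.8% lower in epididymis, with a median of -0.13. The libraries did not overlap for 49 members, against 10.5% of all genes. At an unadjusted p below 0.05, 55 members were higher and 0 lower (8.22% of all genes were higher and 8.14% lower), and edgeR and DESeq2 called 32 and 42 higher (2.53% and 4.65% of all genes) and 0 lower. Without the variance trend 1 member passed, with 1.45% of all genes. Without microglia replicate 2, 21 members passed, and the share of all genes in that fit is not given here.

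The 3 comparisons share their libraries, so their counts are not independent of each other. In a moderated F test over the 3 organs (limma), 66 members passed, 40 large and 26 small, against 11.4% of all genes tested. The mean fell from testis to epididymis to microglia for 72 members (43 large, 29 small), against 21.3% of all genes. The libraries of all 3 organs were apart in that order for 41 members (26 large, 15 small), against 1.73% of all genes, and 28 members were called higher at both steps (limma, adjusted p below 0.05), against 0.382%. The subunit medians differed from each other by 0.02 (testis and epididymis), 0.18 (testis and microglia) and 0.12 (epididymis and microglia) on the log2 scale, with the small subunit higher in both comparisons with microglia; the difference between subunits was not tested. The spread between single members was wider than these gaps.

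**Figure D2:**
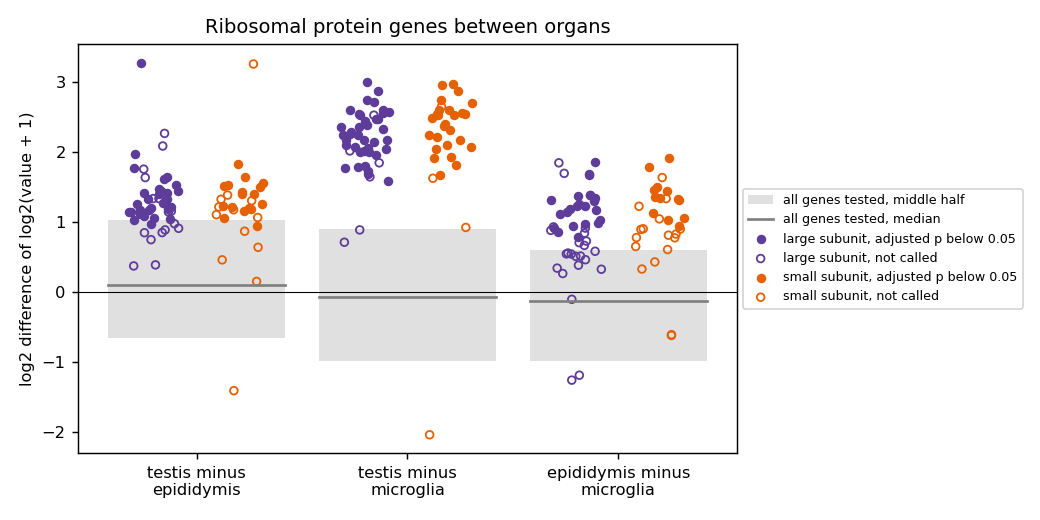
Log2 difference of each ribosomal protein gene in the 3 comparisons (1 point per gene, 46 large and 30 small subunit genes; filled at an adjusted p below 0.05). Grey bands give the middle 50% and grey lines the median of all 11766 genes tested. Both subunits sit above the median of all genes and overlap each other in every comparison.

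The stalk of the large subunit, which recruits the elongation factors, consists of Rplp0, Rplp1 and Rplp2 on a base that includes Rpl12. All 4 were higher in testis than in microglia, as were 66 of all 76 members and 6.82% of all genes tested. In each of the other comparisons 3 of 4 passed. Between testis and epididymis 47 of all members and 2.49% of all genes were higher in testis. Between epididymis and microglia 35 and 2.99% were higher in epididymis. Rplp2 had the highest mean value of any member, at 29078, 30417 and 22069 normalised reads in the testis libraries, 11074, 12319 and 12256 in epididymis and 5537, 4909 and 5770.1 in microglia. No organ overlapped with another, and the log2 difference was 1.18 (SE 0.17) between testis and epididymis and 1.14 (SE 0.17) between epididymis and microglia (limma adjusted p = 0.00096 and 0.000966). Rplp0, the scaffold to which the acidic P1 and P2 proteins bind, stood at 5148, 4913 and 3782 in testis, 1823, 2010.1 and 2085 in epididymis and 684, 745 and 1114 in microglia. The organs were again apart in the same order, by 1.21 (SE 0.22) and 1.25 (SE 0.22, limma adjusted p = 0.00421 and 0.00304).

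Rpl12, at 3699, 6186 and 4022 in testis, 1525, 1480.1 and 2245 in epididymis and 779, 599.7 and 979 in microglia, was apart between all organs as well. Its log2 differences were 1.39 (SE 0.25) and 1.16 (SE 0.25, limma adjusted p = 0.00478 and 0.0137); the second did not pass without epididymis replicate 3 (0.074) or without microglia replicate 2 (0.0694). Rplp1 differed from its partner Rplp2 in that testis replicate 1 lay among the epididymis libraries: 1725, 3229.8 and 3270.1 in testis, 1833, 1655 and 1279 in epididymis and 753, 694 and 1302 in microglia. It passed between testis and microglia, at 1.58 (SE 0.29, limma adjusted p = 0.00176), and not between testis and epididymis, at 0.74 (SE 0.29, adjusted p = 0.188).

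**Figure D3:**
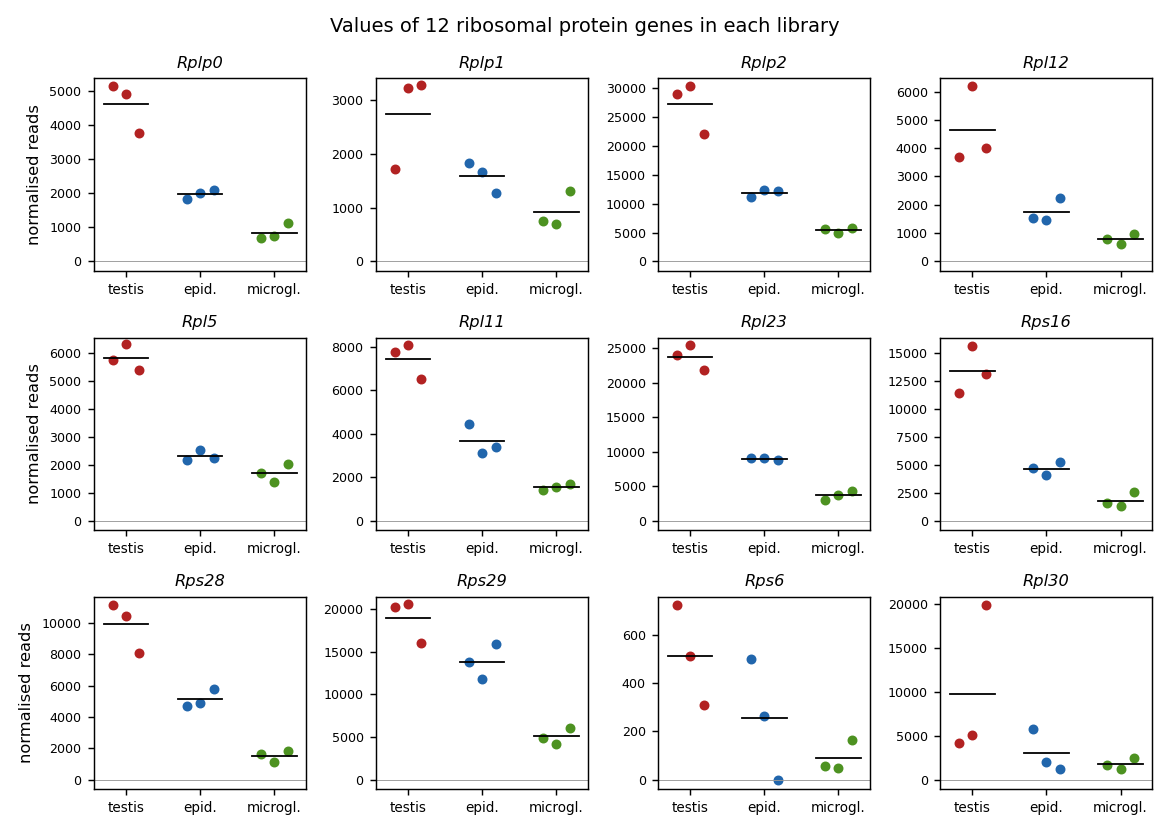
Normalised reads of 12 ribosomal protein genes in each library (points; lines are the mean of 3 libraries; each gene has its own linear axis). Rplp2, Rpl23 and Rps16 fall in steps from testis to microglia, Rps29 stays high in epididymis, Rps6 is at 0 in 1 epididymis library, and Rpl30 has 1 testis and 1 epididymis library above the others of its organ.

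Rpl5 and Rpl11 carry the 5S ribosomal RNA into the large subunit and, when not assembled, bind Mdm2, the ligase that restrains p53. Rpl5 stood at 5769.8, 6316 and 5389 in testis, 2182, 2547 and 2249 in epididymis and 1712, 1376 and 2045 in microglia, a difference of 1.32 (SE 0.19) between testis and epididymis (limma adjusted p = 0.000881). Between epididymis and microglia its libraries did not overlap, but the difference of 0.46 (SE 0.19) did not pass (limma adjusted p = 0.222). Rpl11 was at 7782, 8094 and 6503 in testis, 4429, 3101 and 3398 in epididymis and 1405, 1538 and 1662 in microglia, and passed at both steps, with 1.04 (SE 0.19) and 1.23 (SE 0.19, limma adjusted p = 0.00421 and 0.000968). The 2 partners were thus close in the first step, while in the second Rpl11 differed by more; that contrast between genes was not tested.

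Of 9 genes whose proteins line or surround the exit of the tunnel through which the new chain leaves (Rpl17, Rpl19, Rpl22, Rpl23a, Rpl26, Rpl31, Rpl35, Rpl38 and Rpl39), 9 were higher in testis than in microglia, 5 higher in testis than in epididymis and 6 higher in epididymis than in microglia. Their median differences were 2.24, 1.16 and 1.02 in that order. Over all 76 members these counts were 66, 47 and 35, and of all genes tested 6.82%, 2.49% and 2.99% were called higher. The group was not tested against the other members. Rpl19 had the smallest testis to epididymis difference among them, at 0.38 (limma adjusted p = 0.738), and Rpl17 the largest, at 1.64 (adjusted p = 0.0094). Rpl39, a very short protein inside the tunnel wall, stood at 1699, 2391 and 2833 in testis, 1335, 1061 and 728 in epididymis and 562, 424 and 698 in microglia. All 3 organs were apart, and the testis to epididymis difference of 1.16 (SE 0.28) passed (limma adjusted p = 0.0266) but not when any 1 of 4 libraries was left out (testis replicates 2 and 3, epididymis replicates 2 and 3; 0.0739 to 0.112).

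The highest large subunit genes after Rplp2 were Rpl23, which lies at the face where the subunits meet, and Rpl27a. Rpl23 was at 23989, 25438 and 21840.5 in testis, 9066, 9053 and 8734 in epididymis and 2929, 3723 and 4328 in microglia, with little spread in epididymis. Its differences were 1.41 (SE 0.17) and 1.31 (SE 0.17, limma adjusted p = 0.000347 and 0.000358). Rpl27a was at 22655, 27746 and 17118 in testis, 7590.0, 9008 and 8439 in epididymis and 3804, 3874 and 5208 in microglia, again with no overlap, and differed by 1.41 (SE 0.20) and 0.97 (SE 0.20, limma adjusted p = 0.000881 and 0.00969). The second call was lost without epididymis replicate 2 or microglia replicate 2 (0.0504 to 0.0586).

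The largest difference between testis and epididymis was that of Rpl10a, part of the mobile L1 stalk that helps release the spent tRNA. It stood at 778, 877 and 789.9 in testis, 121, 422 and 10.8 in epididymis and 321, 111 and 228 in microglia. Testis was even and above all others, while epididymis ranged widely, with replicate 3 close to the filter value of 10. The difference of 3.27 (SE 0.87) passed narrowly in limma (adjusted p = 0.0467) and in neither edgeR nor DESeq2 (adjusted p = 0.171 and 0.0592). The limma call was lost when any 1 of 6 libraries was left out (all 3 testis libraries, epididymis replicates 1 and 3, microglia replicate 3, with adjusted p of 0.0525 to 0.133). Without epididymis replicate 3 the difference was 1.84. An exon of another gene lies on the opposite strand of Rpl10a, whose reads this library kit does not tell apart. Rpl18 had the second largest difference among the called members, at 954, 1019 and 1276 in testis, 561, 244 and 153 in epididymis and 127, 165 and 346 in microglia. Epididymis and microglia overlapped, and the testis to epididymis difference was 1.96 (SE 0.45, limma adjusted p = 0.0214), lost without testis replicate 2 or 3 or epididymis replicate 2 or 3 (0.0617 to 0.0897).

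Between testis and microglia the largest difference was that of Rpl32, at 1002, 1297 and 2227 in testis, 1046, 434 and 403 in epididymis and 177, 130.4 and 241 in microglia. Microglia lay below all other libraries, and testis and epididymis overlapped. The differences were 3.00 (SE 0.39) between testis and microglia (limma adjusted p = 9.37e-05) and 1.68 (SE 0.39) between epididymis and microglia (adjusted p = 0.0209; 0.0505 to 0.0974, and no longer called, without epididymis replicate 1, microglia replicate 1 or microglia replicate 2). Rpl37a, a zinc-finger protein of the large subunit, was at 12969, 12689 and 8228 in testis, 5304, 5008 and 6164 in epididymis and 1697, 1030.0 and 1988 in microglia. It had the second largest step between epididymis and microglia, at 1.85 (SE 0.24, limma adjusted p = 0.000314). Its testis to epididymis difference, 1.02 (SE 0.24, limma adjusted p = 0.0266), was lost without testis replicate 1 or 2 or any 1 epididymis library (0.0619 to 0.116).

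Rpl13a, a large subunit protein that also leaves the ribosome as part of an interferon-induced complex silencing inflammatory mRNAs in macrophages, was at 18736, 21258 and 15877 in testis, 7549, 7710.1 and 8866 in epididymis and 4137, 4077 and 5179 in microglia. The organs did not overlap, and both steps passed, at 1.20 (SE 0.17) and 0.85 (SE 0.17, limma adjusted p = 0.00096 and 0.00945). The second was lost without epididymis replicate 3, microglia replicate 1 or microglia replicate 2 (0.0504 to 0.0573).

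Of the 4 genes on the X chromosome, Rpl36a, Rpl39 and Rps4x passed between testis and both other organs, and Rpl10 passed in no comparison. Rpl36a, whose protein lies near the site where the tRNA leaves, was at 4260.3, 4490.0 and 4645 in testis, 2050.0, 1776 and 1569 in epididymis and 849, 805 and 1201 in microglia, with all organs apart and a testis to epididymis difference of 1.32 (SE 0.20, limma adjusted p = 0.00138). Rps4x, of the small subunit body, was at 2109, 3060.1 and 2678 in testis, 1134, 1197 and 1172 in epididymis and 515, 407 and 471 in microglia, with differences of 1.15 (SE 0.21) and 1.34 (SE 0.21, limma adjusted p = 0.00517 and 0.00151). Its organs were also apart. Rpl10, which completes the large subunit late in its assembly, was at 138, 203 and 400.1 in testis, 212, 142 and 172 in epididymis and 149, 163 and 105 in microglia, and the 3 organs overlapped. Its difference between testis and epididymis was 0.37 (SE 0.46, limma adjusted p = 0.726) and turned to -0.05 without testis replicate 3. Rpl10 has 8 near-identical pseudogene copies, whose part in its counts was not tested.

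The head of the small subunit holds the decoding site from above and swivels as the mRNA moves. Of 14 head genes, 13 were higher in testis than in microglia and 8 higher in testis than in epididymis. Between epididymis and microglia 8 were higher in epididymis, and the medians were 2.38, 1.21 and 1.09 in this order. Over all 76 members the counts were 66, 47 and 35, and of all genes tested 6.82%, 2.49% and 2.99% were called higher. The head genes were not tested against the other members. Rps16, whose tail reaches the tRNA, was at 11378, 15657 and 13072 in testis, 4689, 4074 and 5195 in epididymis and 1535, 1273 and 2519 in microglia. Its organs were apart, by 1.52 (SE 0.23) and 1.44 (SE 0.23, limma adjusted p = 0.00137 and 0.00168), and its testis to microglia difference of 2.96 (SE 0.23) was the second largest of all members. Rps15, at 888, 939 and 1228 in testis, 506, 308 and 420.5 in epididymis and 241, 42.4 and 209 in microglia, was next, at 2.95 (SE 0.50, limma adjusted p = 0.000997). Its organs were apart too, but neither single step passed (limma adjusted p = 0.18 and 0.083).

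Rps28, which contacts the mRNA near its exit, was at 11158, 10431 and 8079 in testis, 4720.0, 4859.6 and 5779 in epididymis and 1613, 1117 and 1796 in microglia. Its step between epididymis and microglia, 1.78 (SE 0.21), was the third largest of the called members and had the lowest adjusted p of that comparison among the members (9.27e-05, limma), while its step between testis and epididymis was 0.94 (SE 0.21, adjusted p = 0.017) and was lost without testis replicate 1 or 2 or epididymis replicate 1 or 2 (0.0637 to 0.0795). Rps10, at the mRNA entry, had the largest epididymis to microglia difference, 1.91 (SE 0.40, limma adjusted p = 0.011, or 0.0547 without epididymis replicate 3). It stood at 598, 767 and 494 in testis, 283, 429 and 498 in epididymis and 134, 55.7 and 148 in microglia, so that testis and epididymis overlapped at one end and both lay above microglia. Between testis and epididymis its difference of 0.64 (SE 0.40) did not pass (limma adjusted p = 0.451).

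Rps29 was the highest small subunit gene by its mean, and its testis to epididymis difference lay below the middle 50% of the members. It was at 20251, 20600.2 and 15941 in testis, 13738, 11793 and 15897 in epididymis and 4929, 4229 and 6007 in microglia. The organs did not overlap, yet the testis to epididymis difference was 0.46 (SE 0.19) and did not pass (limma adjusted p = 0.22), and under quantile normalisation it was -0.21. Against microglia Rps29 was higher in both organs, by 1.91 (SE 0.19) in testis and 1.45 (SE 0.19) in epididymis (limma adjusted p = 5.88e-06 and 0.000278). Rps12, also of the head, was the 1 of the 14 that passed in no comparison, at 298, 359 and 758 in testis, 481, 338 and 368 in epididymis and 277, 155 and 279 in microglia. Its testis and epididymis libraries overlapped, and its testis to microglia difference was 0.92 (SE 0.38, limma adjusted p = 0.155).

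Rps27a is translated as a fusion of ubiquitin with a head protein and so supplies ubiquitin too. It was at 3358, 6241 and 6348 in testis, 2882, 1555 and 1301 in epididymis and 975, 667 and 1396 in microglia, and 1 microglia library lay among those of epididymis. Testis was above both, by 1.5 (SE 0.33) over epididymis and 2.40 (SE 0.33) over microglia (limma adjusted p = 0.0173 and 0.000154), the first lost without testis replicate 2 or 3 or epididymis replicate 2 or 3 (0.0714 to 0.0879).

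Of 17 genes listed for the body and platform of the small subunit, 14 were in the table. Of these, 12 were higher in testis than in microglia and 8 higher in testis than in epididymis. Between epididymis and microglia 4 were higher in epididymis, and the medians were 2.40, 1.21 and 0.92 in this order. Over all 76 members the counts were 66, 47 and 35, and of all genes tested 6.82%, 2.49% and 2.99% were called higher. The body genes were not tested against the other members. Rps21, at 17764, 21432 and 21874 in testis, 11659, 9263 and 6139.9 in epididymis and 4482, 4382 and 4784 in microglia, had one of the highest levels. Its organs were apart, although epididymis ranged widely, and the steps were 1.22 (SE 0.21) and 0.94 (SE 0.21, limma adjusted p = 0.00332 and 0.0157). The second was lost without epididymis replicate 1 or 2 or microglia replicate 1 or 2 (0.0539 to 0.0826).

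Rpsa, a platform protein also known as the laminin receptor precursor, was at 3159.8, 3774 and 3416 in testis, 1868, 1312 and 1351 in epididymis and 530.1, 387 and 729 in microglia. All organs were apart, by 1.21 (SE 0.24) and 1.49 (SE 0.24, limma adjusted p = 0.00983 and 0.00194), the first not called without epididymis replicate 2 or 3 (0.0504 to 0.0558). Rps14, of the platform, was at 2725, 3724 and 8767 in testis, 2513, 1282 and 612 in epididymis and 665, 606 and 978 in microglia, with testis above the 6 other libraries. It had the third largest called difference between testis and epididymis, 1.83 (SE 0.45, limma adjusted p = 0.0301), lost without testis replicate 2 or 3 or epididymis replicate 2 or 3 (0.0599 to 0.132). Testis replicate 3 was far above the other testis libraries in this gene.

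Rps6, the protein that S6 kinases phosphorylate downstream of mTOR, had a low level and passed in no comparison. It was at 722, 512 and 308 in testis, 500, 265 and 0 in epididymis and 57.4, 47.9 and 165 in microglia. The testis libraries overlapped with epididymis replicate 1 and lay above microglia. A count of 0 in epididymis replicate 3 allows up to 3 reads, or 3.23 normalised reads, and the fitted differences of 3.25 (SE 1.57) between testis and epididymis and -0.61 (SE 1.57) between epididymis and microglia depend on the pseudocount (limma adjusted p = 0.301 and 0.905). The sign of the second turned to 0.35 with a pseudocount of 10 and to 2.23 without that library, where it passed (limma adjusted p = 0.0485). Rps6 has 11 near-identical pseudogene copies, among which the authors' counting, whose rule is not given in the sources used here, could have split its reads.

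Of the 76 members, 4 had a library without reads. Besides Rps6 these were Rpl24 (testis replicate 1, epididymis replicate 2 and microglia replicate 2), Rpl27 (epididymis replicate 3) and Rps19bp1 (testis replicate 1), where the limit of 3 reads equals 2.81 to 3.34 normalised reads. Rps19bp1, which is no ribosomal protein, was the 1 member with differences below 0 in both comparisons of testis; the other 75 were above 0 in each, against 53.5% of all genes tested for epididymis and 47.7% for microglia. It was at 0, 33.1 and 25.6 in testis, 13.6, 67.5 and 16.2 in epididymis and 26.4, 41.2 and 53.3 in microglia. Its libraries overlapped, and neither -1.41 (SE 1.52) against epididymis nor -2.04 (SE 1.52) against microglia passed (limma adjusted p = 0.682 and 0.469). Between epididymis and microglia, 5 members had a difference below 0, namely Rpl10a, Rpl37rt, Rps6, Rps19bp1 and Rpl24, and none passed; 44.9% of all genes tested were above 0 there, and 71 of the members. Of the 2 copies, Rps27rt was higher in testis, at 4305, 5657 and 4473 against 1779, 1717 and 1544 in epididymis and 668, 497 and 849 in microglia. Over epididymis it was higher by 1.51 (SE 0.22, limma adjusted p = 0.000954). Rpl37rt, at 1000.1, 674 and 404 in testis, 176, 424 and 47.4 in epididymis and 418, 302 and 343 in microglia, did not pass in any comparison. Reads of such copies and of their parent genes can be exchanged in counting, so the values of both copies are uncertain. Rps27 is among the members, but Rpl37 is not in the table, so Rpl37rt has no parent value here.

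Some members varied between the libraries of an organ more than others. Testis replicate 3 and epididymis replicate 1 both lay above the other libraries of their organ for a set of members, picked here after their values were seen. Rpl30, a small RNA-binding protein of the large subunit, was at 4157, 5099 and 19893 in testis, 5775, 1962 and 1262 in epididymis and 1629, 1175 and 2426 in microglia. Rpl34 was at 925, 1485 and 5312 in testis, 2096, 647 and 334 in epididymis and 565, 429 and 652 in microglia. In both genes, those 2 libraries stood highest of their organ, and Rplp2 and Rpl23 showed no such rise. Over the 63 members with a mean of at least 500, the deviations of the 2 libraries had a Pearson r of 0.75 (Spearman 0.74), against 0.27 (0.22) over 1151 other genes of that level. Over all 76 members, lowly expressed ones included, it was 0.40 (0.61). These are correlations across genes of the same libraries, given as a description. Without both libraries, an alternative added after seeing the data, 36 members were called higher in testis than in epididymis, 65 higher in testis than in microglia and 23 higher in epididymis than in microglia (limma, adjusted p below 0.05), with 0 lower. The share of all genes called in that fit is not given here. A loss of calls particular to the members therefore cannot be told from a loss over all genes.

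**Figure D4:**
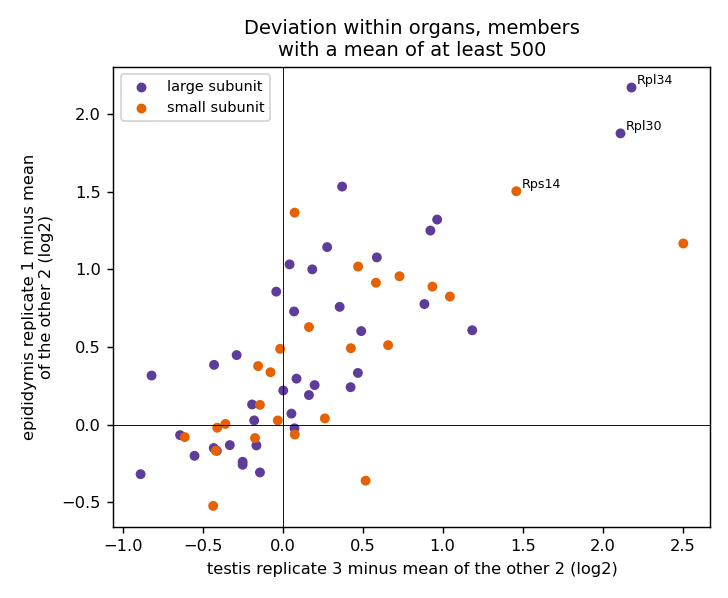
Deviation of testis replicate 3 (x) and of epididymis replicate 1 (y) from the mean of the other 2 libraries of the same organ, on the log2 scale, for the 63 ribosomal protein genes with a mean of at least 500 (1 point per gene). Rpl34, Rpl30 and Rps14 are among the members above 1 on both axes, and the points follow a common direction (Pearson r of 0.75, or 0.40 over all 76 members, of which those below that level are not drawn).

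Levels were compared between genes as normalised reads per kilobase of the annotated transcript. On this scale Rplp2 was highest in testis (64580), followed by Rps21 (51667), Rps29 (48540), Rps28 (36491) and Rpl23 (22433). In epididymis Rps29 (35409) stood above Rplp2 (28226), and in microglia they were at 12962 and 12839. Rps19bp1 was the lowest gene in all 3 organs, at 23.4 in testis, 38.7 in epididymis and 48.1 in microglia per kilobase, and by the mean over all libraries Rpl27 and Rpl24 were the next. The order of the 76 genes was nearly the same everywhere, with Spearman correlations across genes of 0.98 between testis and epididymis, 0.96 between testis and microglia and 0.96 between epididymis and microglia. The middle 50% of the members spanned 2.10, 2.15 and 2.21 log2 units in the 3 organs, wider than the median difference between epididymis and microglia.

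Median levels were lower in members with more pseudogene copies. In the mouse genome 61 of the 76 genes have at least 1 annotated pseudogene with 95% identity over 50% of the coding part, with 55 for Rpl21. The 15 members without such a copy had a median level of 2619 per kilobase, the 27 with 1 to 4 copies 1925 and the 34 with 5 or more 1374, a Spearman correlation of -0.26 across genes. The median organ differences of the 3 classes were 1.18, 1.32 and 1.17 between testis and epididymis, 2.27, 2.24 and 2.25 between testis and microglia, and 1.11, 0.84 and 0.96 between epididymis and microglia. In the last comparison 10 of 15, 11 of 27 and 14 of 34 were called (limma), and the classes were not tested against each other. Exons of another gene overlap 37 of the members, and the kit does not mark strand, so reads of such a partner cannot be told apart. Small nucleolar RNA genes lie within 29 members, 58 in all.

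Ribosomal protein mRNAs are short, with a median transcript of 679 bases and a range from 271 to 3706, against a median of 2784 bases over the genes tested. Short genes that are no members also leaned towards testis: the 1035 other genes under 1000 bases had median differences of 0.46 (testis and epididymis), 0.49 (testis and microglia) and 0.03 (epididymis and microglia), and 3.67%, 12.8% and 4.35% of them were called higher. The 60 members under 1000 bases had medians of 1.21, 2.24 and 0.93. Among 84 other genes that were both short and at a mean of at least 500, the medians were 0.45, 0.78 and 0.42, with 14, 35 and 19 called higher and 0, 3 and 5 lower. The part of transcript length in the members' differences was not tested further.

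The start of each mRNA was read from the RefSeq promoter table, which held 56 of the 76 members. A C at the annotated start followed by 4 letters that are each C or T, on the strand of the gene, was present in 14 of the 56 (25%) and in 3.01% of the 27025 genes of the table. When the C was allowed within 5 bases of the start, 26 (46.4%) of the members and 21.2% of all genes had it, and the sequence TATAAA lay 15 to 40 bases before the start on the same strand in 0 of 56 and in 2.41%. The shorter TATA, which TATAAA contains, lay there in 6 of the 56 (10.7%) and in 7.02% of all genes. Below are 30 bases around the start, 15 before it and 15 from it on, for the stalk genes in the table and for the 2 genes with the largest epididymis to microglia difference that have a row, from RefSeq on GRCm38.p6, with the C and the pyrimidines after it in capitals where they are present.
Rplp2 (chr7:141447636-141447665, + strand): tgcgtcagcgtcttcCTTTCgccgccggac
Rpl12 (chr2:32961697-32961726, + strand): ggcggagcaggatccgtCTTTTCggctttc
Rplp0 (chr5:115559452-115559481, + strand): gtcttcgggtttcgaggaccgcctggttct
Rps10 (chr17:27635230-27635259, - strand): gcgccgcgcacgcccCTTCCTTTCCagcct
Rpl37a (chr1:72711245-72711274, + strand): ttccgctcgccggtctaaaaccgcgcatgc
Rplp2 and Rps10 start on the C itself, Rpl12 has it 2 bases on, and Rplp0 and Rpl37a hold no such run within 5 bases of it. These starts are those annotated, and for Rplp2, Rpl12 and Rps10 they lie 281, 153 and 1425 bases from the 5′ end of the gene in GENCODE. The 26 genes with the run had medians of 1.20, 2.32 and 1.00 in the 3 comparisons and the 30 without it 1.32, 2.24 and 0.92. For the 14 of the 26 with the run at the start itself, they were 1.205, 2.48 and 1.18. These classes were not tested against each other.

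Other mRNAs known to carry the TOP motif differed in the same direction as the called members where they passed. Npm1 was listed both here and among the ribosome biogenesis factors. Of 18 listed, 16 were tested, and 7 were higher in testis than in epididymis, 13 higher in testis than in microglia and 5 higher in epididymis than in microglia, with 0 lower in each (limma, adjusted p below 0.05), where 2.49%, 6.82% and 2.99% of all genes were higher, and medians of 1.15, 1.74 and 0.54. Eef1g, an elongation factor subunit, had the largest called difference between testis and epididymis (1.73, SE 0.36, limma adjusted p = 0.0127). Between testis and microglia it was that of Vim, an intermediate filament protein (6.14, SE 0.88, limma adjusted p = 0.000226). Vim was at 419, 347 and 472 in testis but only 15.5, 3.34 and 1.78 in microglia. The size of its difference therefore depends on the pseudocount. Tpt1, the translationally controlled tumor protein, was at 14856, 19045 and 12744 in testis, 4825, 7144 and 6115 in epididymis and 3916, 4019 and 4758 in microglia. Testis was apart from both others, by 1.37 over epididymis (SE 0.20, limma adjusted p = 0.000954). Rack1, which sits on the head of the small subunit, was at 3177, 4311 and 3007 in testis, 1563, 1483 and 1222 in epididymis and 774, 842 and 901 in microglia. Its organs were apart, by 1.29 and 0.76 (SE 0.20 each, limma adjusted p = 0.00175 and 0.0456).

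Fau, which encodes a small subunit protein fused to a ubiquitin-like protein, lies outside the symbol rule. It was at 838, 2481 and 1362 in testis, 1089, 1153 and 941 in epididymis and 351, 221 and 451 in microglia. All microglia libraries lay below those of both other organs, by 2.11 against testis and 1.69 against epididymis (log2 differences, SE 0.35 each, limma adjusted p = 0.000797 and 0.00994). Testis and epididymis overlapped in Fau, and the difference of 0.42 (SE 0.35) did not pass (limma adjusted p = 0.588). Rpl7l1, chosen after its values were seen, is a paralog that takes part in ribosome assembly and not in the finished ribosome. It was at 449 ± 138 (SD, n = 3) in testis, 481 ± 99.97 in epididymis and 475 ± 77.6 in microglia, and these overlapped.

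Of 47 ribosome biogenesis factors tested, 2 were higher and 1 lower in testis than in epididymis (limma, adjusted p below 0.05), where 2.49% of all genes were higher and 1.9% lower. Between testis and microglia 2 were higher and 1 lower, against 6.82% and 4.83% of all genes. Between epididymis and microglia 0 passed in limma and edgeR and 2 were lower in DESeq2, with 1 higher and 5 lower at an unadjusted p below 0.05 in limma. The medians were 0.45, 0.13 and -0.13, and the counts are too near the shares over all genes to be a result about these factors. Ncl, the nucleolar protein nucleolin, was at 8349, 8227 and 7525 in testis, 3884, 4360 and 4460 in epididymis and 2573, 4020 and 3591 in microglia, higher in testis than in epididymis by 0.92 (SE 0.19, limma adjusted p = 0.0098). Bysl, needed for small subunit maturation, was higher in testis than in epididymis by 1.83 (SE 0.36, limma adjusted p = 0.0089) and Nmd3, which exports the large subunit from the nucleus, lower by 2.34 (log2 difference -2.34, SE 0.62, adjusted p = 0.0433). Against microglia, Ncl was higher in testis by 1.27 (limma adjusted p = 0.000269) and Npm1, which helps export ribosomal subunits, by 1.07 (limma adjusted p = 0.0105), while Ppan was lower (-1.73, limma adjusted p = 0.0033).

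Among 14 regulators of TOP mRNAs, 0 passed between testis and epididymis or between epididymis and microglia in limma, edgeR or DESeq2. In these comparisons 2 and 1 were lower and 0 higher at an unadjusted p below 0.05 in limma, where 7.86% and 8.14% of all genes were lower. Rptor of the mTOR complex was the 1 gene lower in testis than in microglia (log2 difference -2.13, SE 0.42, limma adjusted p = 0.0031). Of all genes tested, limma called 2.49% higher and 1.9% lower in testis than in epididymis. The shares were 6.82% and 4.83% between testis and microglia, and 2.99% and 1.8% between epididymis and microglia. The counts are too near these shares to be a result about the regulators. Larp1, which binds the TOP motif and was chosen here after its values were seen, was at 439 ± 124 (SD, n = 3) in testis, 553 ± 312 in epididymis and 456 ± 40.4 in microglia, and the organs overlapped. Of 67 mitochondrial ribosomal protein genes tested, 0 were higher and 1 lower in testis than in epididymis, 1 higher and 0 lower in testis than in microglia, and 1 higher and 0 lower in epididymis than in microglia, with medians of 0.53, 0.58 and -0.12, each a smaller share than that of all genes called in that direction. The 2 genes behind these calls were Mrpl37, which was higher in epididymis than in both other organs, and Mrpl14, which was higher in testis than in microglia.

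**Figure D5:**
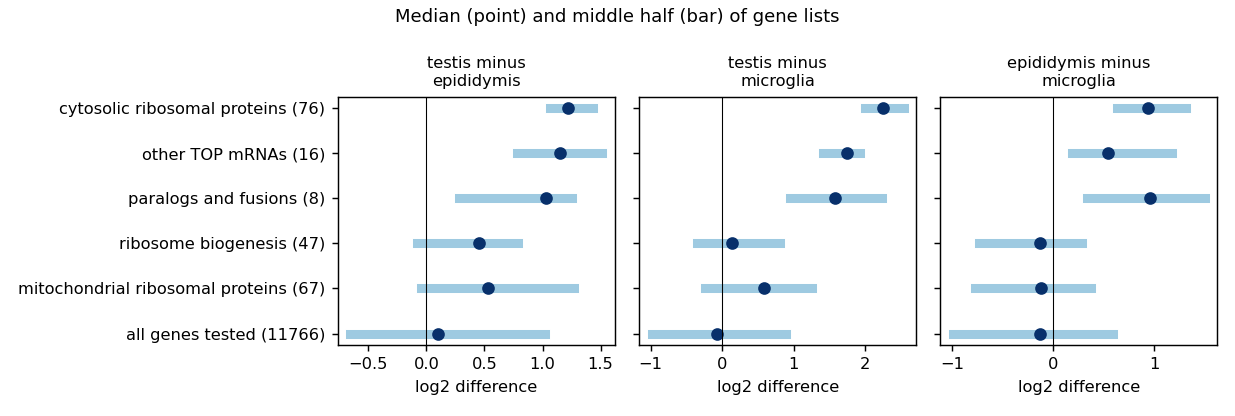
Median (point) and middle 50% (bar) of the log2 differences of 6 gene lists in the 3 comparisons, with the number of genes tested in brackets. Cytosolic ribosomal proteins have medians of 1.22, 2.25 and 0.94, other TOP mRNAs 1.15, 1.74 and 0.54, and mitochondrial ribosomal proteins 0.53, 0.58 and -0.12.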

How the data were processed

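RNA of sorted macrophages was measured in 9 libraries, 3 per organ, prepared by the TruSeq v2 protocol, per the labels, a kind of library that carries no strand information. The submitters' processing notes list CASAVA 1.8, Bowtie2 2.2.1, Partek 6.6 and DESeq2 and the build mm10; what each of them did, how reads were counted and on which annotation is not given in the sources used here. The deposited signal values are gene counts that the authors divided by 1 factor per library: dividing each column by its smallest value above 0 gave whole reads for 100% of values (tolerance 1e-06), and the factors equal median-ratio size factors computed from those reads. The unit is called normalised reads here.

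Library depth was 2727092 to 4458688 reads, and intervals and limits from counts cover counting error only. Members were chosen by symbol. The rule's clause on a final ps and digit was read as a pseudogene suffix, since taken by letter it would remove Rps10 and most small subunit genes. The members, gene lists and tests were chosen with earlier results of these data known. Genes with 10 or more normalised reads in 3 or more libraries (11766 of 15434) were fitted in limma 3.58.1 (R 4.3.3) on log2(value + 1) with 1 mean per organ over all 9 libraries, and variances moderated with a trend on the mean (6 residual and a median of 9.08 prior degrees of freedom). The added 1 shrinks the fold of low genes on this scale, but a library at or near 0 can enlarge it. Rps6 had a fitted difference of 3.25 between testis and epididymis, where its mean values were 514 and 255. The p-values were adjusted by Benjamini-Hochberg over all genes tested, with a call below 0.05. No test was made of a list of genes, and no sample was left out or imputed in the reported fit. Some genes were fitted and counted but are not reported by name here.

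Genes described with values were the 3 large and 3 small subunit genes with the highest mean, the 3 called members with the largest difference in each comparison, members with a sign opposite to the median in the testis comparisons, members of fixed roles and, from each further list, up to 3 called genes with the largest difference in each comparison; further genes were chosen after their values were seen. The count tests on recovered reads, edgeR 4.0.16 (quasi-likelihood) and DESeq2 1.42.0, were alternatives. Over all genes edgeR called 195 higher and 171 lower in testis than in epididymis, 617 and 439 in testis than in microglia and 298 and 160 in epididymis than in microglia. Other alternatives were the pseudocount (10), the filter (none, or 50), the scaling, no variance trend, only the libraries compared and each library left out. The fit was also run on simulated counts with set differences in testis. The outcome is not reported here and is no support for the calls. Gene models and pseudogenes came from GENCODE M21 (all 76 members matched), with pseudogene copies found by BLAST of the coding part. Start sequences came from RefSeq on GRCm38.p6, the assembly behind mm10.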

Additional observations from a re-analysis of the deposited data

How the results depend on the processing

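Over the alternatives run, 0 members were called lower in any of the 3 comparisons, and the 3 medians of each subunit stayed above 0. The main dependence was on limma's variance trend: without it, 0 members were called higher in testis than in epididymis, 1 in epididymis than in microglia and 41 over the organs. The second was the library set. Leaving out each library in turn gave 32 to 49 members higher in testis than in epididymis, 64 to 70 in testis than in microglia and 21 to 40 in epididymis than in microglia, the 21 without microglia replicate 2. Leaving out testis replicate 3 and epididymis replicate 1 together gave 23 in the last comparison, and the cause was not tested. For the fits with libraries left out, and for the 41 without the trend, the share of all genes called is not given here. The large subunit median was 1.00 between testis and epididymis under quantile normalisation, 1.91 between testis and microglia under quantile normalisation and 1.97 at the same total per library; between epididymis and microglia it ranged from 0.81 to 1.11 with 1 library left out. Without Rps19bp1, Rpl37rt and Rps27rt the mean ratio of large to small subunit reads in epididymis was 1.49.

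Some named genes changed sign, each in a comparison where it was not called in the reported fit. These were Rpl10 between testis and epididymis (-0.0495 to 0.717 with 1 library left out), Rpl10a between epididymis and microglia (-2.42 to 0.17), Rpl18 there (-0.00092 to 0.93, with -0.00092 also without testis replicate 3 and epididymis replicate 1), Rps19bp1 between testis and epididymis (-2.55 without testis replicate 3 and epididymis replicate 1, to 0.22 without testis replicate 1) and Rps29 between testis and epididymis under quantile normalisation (-0.21). Rps6 between epididymis and microglia ranged from -2.26 to 2.23 with 1 library left out (limma adjusted p = 0.0485 at 2.23, without epididymis replicate 3), and was 1.5 in DESeq2, 1.46 in edgeR and 0.35 with a pseudocount of 10; its epididymis replicate 3 held no reads. Over the named genes and settings, 1626 values kept their direction and side of the threshold, 112 lost the call, 13 gained it and 10 changed sign. No paired analysis was possible because the labels give no replicate number that links libraries of different organs. The fitted differences of the 4 members with a library at 0 depend on the pseudocount, and the cause of those zeros was not tested.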
